A study of Saccharomyces cerevisiae with 9 samples.

Results

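Yeast that lacks the last step of the Kennedy pathway, cpt1Δ ept1Δ, was compared directly with yeast that lacks its middle step, ect1Δ pct1Δ, to ask which transcripts tell the 2 strains apart. The comparison uses 6 of the 9 libraries of the study and 6079 genes, those of 7122 in the table that had enough counts to test, with the 4 deleted genes left out. Yeast makes phosphatidylethanolamine and phosphatidylcholine along separate branches, and the Kennedy pathway, or CDP-alcohol route, is the branch that starts from free ethanolamine and choline. Kinases phosphorylate the alcohols, Ect1 and Pct1 turn the phosphates with CTP into CDP-ethanolamine and CDP-choline, and the transferases Ept1 and Cpt1 join these to diacylglycerol in the endoplasmic reticulum and Golgi. The other branch, the CDP-diacylglycerol route, makes the same lipids through phosphatidylserine and methylation, and in yeast it can supply them alone. Loss of Ect1 and Pct1 and loss of Cpt1 and Ept1 therefore block the same route, but at different steps: without Ect1 and Pct1 the CDP-alcohols are not made, while without the transferases they can be made but not used.

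All strains were Saccharomyces cerevisiae of the prototrophic CEN.PK background, which needs no added amino acids or bases, grown in synthetic minimal medium with 2% glucose and harvested in log phase after dilution of an overnight culture. There were 3 libraries of polyadenylated RNA of each strain: cpt1Δ ept1Δ, which lacks CPT1 and EPT1 and keeps ECT1 and PCT1, ect1Δ pct1Δ, which lacks ECT1 and PCT1 and keeps CPT1 and EPT1, and wild type (WT). WT takes no part in the comparison, but its levels are given beside those of the strains, and its libraries helped to estimate the spread. In the genotype labels the gene names end in digits that run with the replicate (pct2, ept3), taken here as replicate numbers, and the design text of the series speaks of a knockout of PAH1 and DGK1. Neither the labels nor the design text says that replicates were separate cultures or how many clones were used, so p-values reflect the spread between libraries, which may be technical only. Levels are CPM, that is, counts relative to library size, corrected with TMM factors, and hold for comparisons of a gene between libraries, not between genes.

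The libraries matched the strain names, not the design text. CPT1 stood at 0.60, 0.18 and 0.18 CPM in cpt1Δ ept1Δ, against 218, 230.2 and 213 CPM in ect1Δ pct1Δ, and EPT1 at 0.48, 0.09 and 0 CPM in cpt1Δ ept1Δ, against 153, 143 and 153 CPM in ect1Δ pct1Δ. ECT1 stood at 106, 106 and 109 CPM in cpt1Δ ept1Δ, against 0.31, 0 and 0.17 CPM in ect1Δ pct1Δ, and PCT1 at 128, 139.7 and 136 CPM in cpt1Δ ept1Δ, against 0.93, 0.94 and 0.87 CPM in ect1Δ pct1Δ. PAH1, which encodes the phosphatidate phosphatase, averaged 53.6 ± 3.95 CPM in cpt1Δ ept1Δ and 48.7 ± 5.13 CPM in ect1Δ pct1Δ (SD, n = 3 here and below). DGK1, which encodes the diacylglycerol kinase, averaged 111 ± 0.90 CPM in cpt1Δ ept1Δ and 107 ± 3.41 CPM in ect1Δ pct1Δ, so both genes were expressed in both strains. The cells were of the a mating type, since STE2, the receptor gene of a cells, averaged 812 ± 9.28 CPM in cpt1Δ ept1Δ and 767 ± 32.7 CPM in ect1Δ pct1Δ, while MF(ALPHA)1, the pheromone gene of alpha cells, averaged 1.82 ± 0.24 CPM in cpt1Δ ept1Δ and 2.58 ± 0.51 CPM in ect1Δ pct1Δ. Library totals ranged from 5669951 to 11793688 counts. The second principal component set all ect1Δ pct1Δ libraries (5.69 to 6.54) apart from cpt1Δ ept1Δ (-2.36 to 1.27) and WT (-12.3 to -0.05). The leading one separated no groups, and ect1Δ pct1Δ replicate 2 (-7.33) lay far from the other 2 libraries of that strain (9.66 and 4.71). Transcripts of the mitochondrial genome, which poly(A) selection mostly leaves out, took 209 CPM in cpt1Δ ept1Δ replicate 3 and 3.47 to 41.1 CPM in the other libraries.

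Few genes told the strains apart. A total of 8 genes were called, at a Benjamini-Hochberg adjusted p below 0.05 in edgeR's quasi-likelihood test, which is 0.132% of the 6079 tested. The 3 higher in cpt1Δ ept1Δ (0.0494% of genes tested) were YBR242W, ARR3 and ARR1, and the 5 lower (0.0823%) were YGR201C, STF2, IRC7, IMD2 and YNL134C. In all 8 the libraries of the strains did not overlap, which held for 4.72% of all genes upward and 5.56% downward. At an unadjusted p below 0.05 there were 283 genes (4.66%), 103 higher (1.69%) and 180 lower (2.96%), where 304 would be expected if no gene differed. Of all genes 48.4% had a log2 fold change above 0 and 51.6% below, with a median of -0.003. Within 1.1-fold of each other lay 81.2% of genes, within 1.2-fold 92.9% and within 1.5-fold 98.5%. Of the 89 genes beyond 1.5-fold, 17 had a mean level of 5 CPM or more and 4 had 20 CPM or more, so most were genes of low level. For a typical gene the standard error (SE) of the log2 fold change was 0.09.

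**Figure D1:**
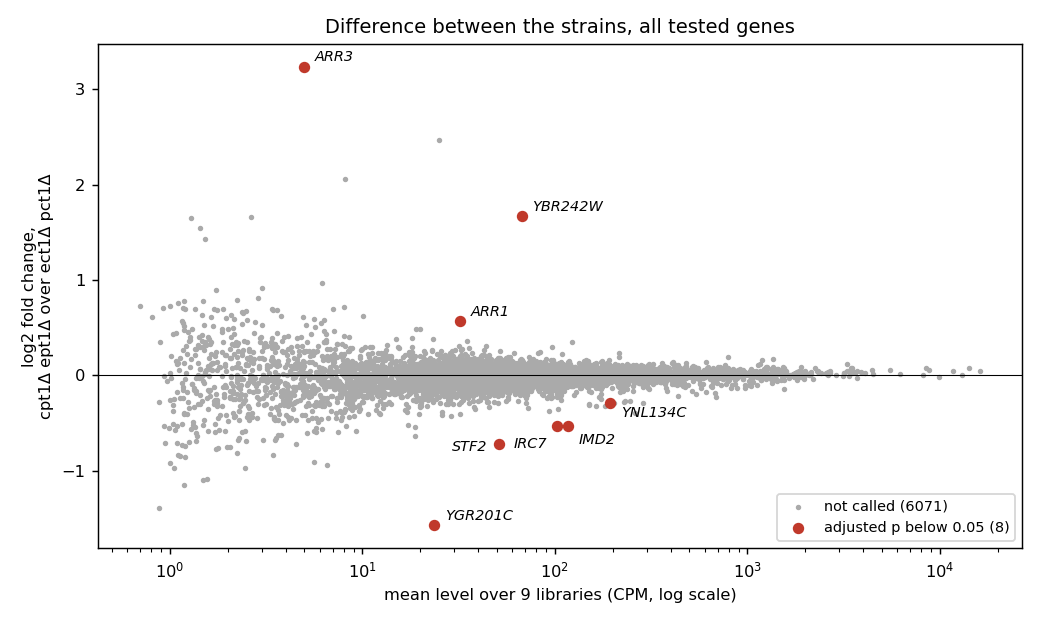
Log2 fold change of each of the 6079 tested genes, cpt1Δ ept1Δ over ect1Δ pct1Δ (vertical axis), against its mean level over 9 libraries in CPM on a log scale (horizontal axis); red points with names are the 8 genes called at an adjusted p below 0.05 and grey points all others. The cloud narrows as the level rises, and 98.5% of the genes lie within 1.5-fold.

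The called genes fell into 3 sets by position, and phospholipid genes were in none of them. YGR201C and STF2 lie directly beside PCT1 and ECT1, genes that only 1 of the strains lacks. ARR1, ARR3, IMD2 and IRC7 lie within 10 kb of a chromosome end, and YBR242W and YNL134C lie elsewhere. In 7 of the 8 genes the mean of cpt1Δ ept1Δ was the nearer one to the WT mean, and in IRC7 that of ect1Δ pct1Δ was.

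YBR242W (chromosome II, 704670 to 705386, plus strand) had the smallest p of the genes that were not deleted. Its product belongs to the HD-domain family of proteins, some of which remove phosphate from deoxynucleotides. It stood at 86.8, 86.3 and 90.9 CPM in cpt1Δ ept1Δ, against 29.1, 24.8 and 30.4 CPM in ect1Δ pct1Δ and 83.4, 83.2 and 90.0 CPM in WT. The level was thus low in every ect1Δ pct1Δ library, and the libraries of cpt1Δ ept1Δ overlapped those of WT. The difference was 3.18-fold (log2 fold change 1.67 ± 0.08, with the SE here and after every log2 fold change; edgeR, Benjamini-Hochberg adjusted p = 1.23e-10). ALG7, which starts the synthesis of the N-glycan precursor and whose end lies 60 bases from that of YBR242W, averaged 90.7 ± 0.57 CPM in cpt1Δ ept1Δ and 90.1 ± 3.17 CPM in ect1Δ pct1Δ (SD, n = 3 each). VVS1, on the other side, had a log2 fold change of -0.05 ± 0.10, and neither neighbour was called. The nearest similar gene in the genome, YGL101W, is 72.2% identical over 453 bases. The 250 bases before its start codon (chrII:704420-704669, plus strand, build R64, RefSeq) are shown because no deleted gene is near this most clearly different gene; capitals mark TATAA or its reverse complement TTATA, which overlap where they read TTATAA.
before YBR242W: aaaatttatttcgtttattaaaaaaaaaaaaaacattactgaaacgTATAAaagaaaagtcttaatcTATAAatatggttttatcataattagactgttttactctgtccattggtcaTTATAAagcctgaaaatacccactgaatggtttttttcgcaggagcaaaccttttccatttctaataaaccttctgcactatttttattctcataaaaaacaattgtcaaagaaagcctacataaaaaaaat
At least 1 such match stood in 71.3% of the 250-base windows before 5984 genes, so its 4 matches are a description of the window.

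The arsenic resistance genes ARR1, ARR2 and ARR3 are adjacent genes at the right-hand end of chromosome XVI. In yeast Arr1 is the transcription activator that responds to arsenic, Arr2 reduces arsenate to arsenite and Arr3 pumps arsenite out of the cell. ARR2 and ARR3 are read in opposite directions from a shared stretch of 250 bases (chrXVI:939672-939921, given on the plus strand, toward ARR3). It is shown because it holds, in capitals, TTAATAA, the core of the element that Arr1 is known to bind, and because the gene of the activator and its target differed together.
between ARR2 and ARR3: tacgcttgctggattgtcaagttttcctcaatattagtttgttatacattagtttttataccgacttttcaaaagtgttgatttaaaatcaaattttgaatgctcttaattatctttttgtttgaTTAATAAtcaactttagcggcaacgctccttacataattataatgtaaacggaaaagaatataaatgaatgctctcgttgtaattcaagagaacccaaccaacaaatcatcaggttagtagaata
On either strand these 7 letters were found in 604 of the 5984 windows of this length (10.1%), among them also those before ARR1, IMD2 and YBR242W. A match is a description of the letters and does not show that Arr1 was bound there in these cells.

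ARR3 (939922 to 941136, plus strand) had the largest fold of any called gene. It stood at 7.29, 6.99 and 8.77 CPM in cpt1Δ ept1Δ, against 0.62, 0.60 and 1.40 CPM in ect1Δ pct1Δ and 6.26, 7.29 and 5.32 CPM in WT. The counts behind these were 61, 79 and 99 in cpt1Δ ept1Δ and only 4, 7 and 8 in ect1Δ pct1Δ, so the size of the ratio is known only roughly. The log2 fold change was 3.23 ± 0.30 (SE, 95% interval 2.60 to 3.87), or 9.41-fold (edgeR, Benjamini-Hochberg adjusted p = 3.65e-06). ARR1 (938148 to 939032, minus strand) stood at 37.2, 32.5 and 37.9 CPM in cpt1Δ ept1Δ, against 23.5, 25.2 and 23.6 CPM in ect1Δ pct1Δ and 34.8, 38.1 and 37.7 CPM in WT. Its difference was smaller, at 1.48-fold (log2 fold change 0.57 ± 0.10, edgeR, Benjamini-Hochberg adjusted p = 0.0097), and the call ended when cpt1Δ ept1Δ replicate 1 or 3 or ect1Δ pct1Δ replicate 1 or 3 was left out (adjusted p up to 0.0895). ARR2 (939279 to 939671, minus strand) stood at 2.27, 2.39 and 3.54 CPM in cpt1Δ ept1Δ, against 0.78, 1.37 and 0 CPM in ect1Δ pct1Δ and 2.81, 5.39 and 5.15 CPM in WT. Its libraries did not overlap either, but with 19, 27 and 40 counts in cpt1Δ ept1Δ against 5, 16 and 0 in ect1Δ pct1Δ it was not called (log2 fold change 1.66 ± 0.49, edgeR, Benjamini-Hochberg adjusted p = 0.456).

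The neighbours of the ARR genes had positive values too, from YPR195C (19.9 kb from the end) outward, but none of them was called. SGE1, a drug exporter gene just inside ARR1, stood at 52.2, 44.8 and 46.8 CPM in cpt1Δ ept1Δ, against 37.1, 37.5 and 41.2 CPM in ect1Δ pct1Δ and 45.4, 47.1 and 41.2 CPM in WT, with a log2 fold change of 0.31 ± 0.09 (edgeR, Benjamini-Hochberg adjusted p = 0.343). YPR202W, YPR203W and YPR204W, beyond ARR3, had log2 fold changes of 0.63 ± 0.47, 1.43 ± 0.46 and 0.49 ± 0.12, none called (edgeR, Benjamini-Hochberg adjusted p of 0.999, 0.551 and 0.185). YPR204W averaged 22.9 ± 2.06 CPM in cpt1Δ ept1Δ, 16.2 ± 0.92 CPM in ect1Δ pct1Δ and 17.8 ± 0.72 CPM in WT (SD, n = 3 each). In this gene, unlike the ARR genes, WT was nearer to ect1Δ pct1Δ. YPR204W is a helicase gene of the Y' elements, repeats shared by many chromosome ends, and 47 other genes have similar sequence, so its reads need not come from this end. Farther inside, from PZF1 (37.7 kb from the end) to OPT2 (22.5 kb), the values lay between -0.15 and 0.10, with none called. Positions are those of build R64, the reference of another laboratory strain, S288C, and where the ends of the CEN.PK chromosomes lie was not analysed here.

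**Figure D2:**
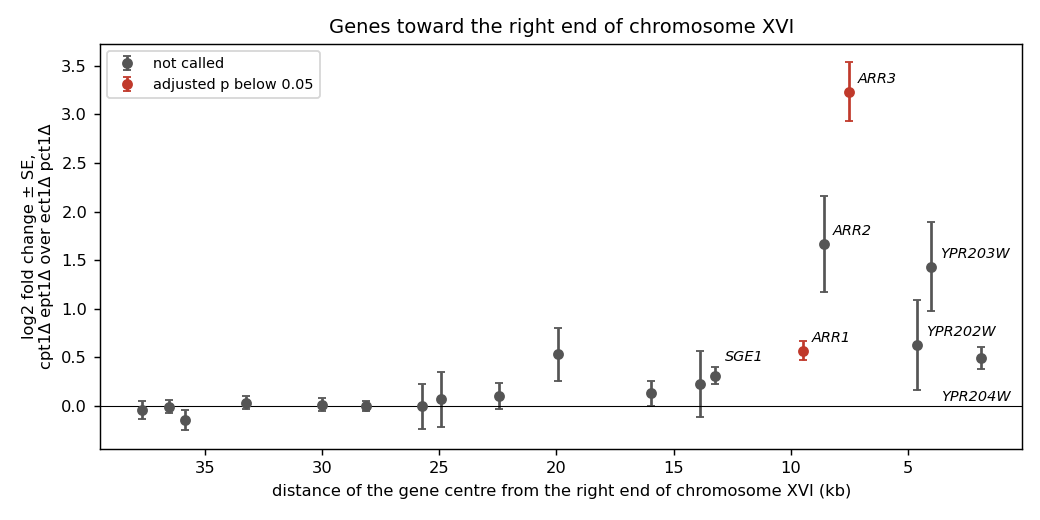
Log2 fold change with its SE, cpt1Δ ept1Δ over ect1Δ pct1Δ (vertical axis), of the tested genes toward the right end of chromosome XVI, by distance of the gene centre from the end in kb, with the end at the right (horizontal axis); red points are called, grey points are not. The values lie near 0 at the left, and ARR3 is highest at 3.23.

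Other called genes also lay close to chromosome ends, a grouping chosen after the values were seen. The distance to the nearest end was 4.94 kb for IRC7, 6.68 kb for IMD2, 6.93 kb for ARR3 and 9.03 kb for ARR1, and the remaining 4 called genes were at least 107.8 kb away. Of 172 tested genes within 20 kb of an end, 4 were called, 28 (16.3%) had an unadjusted p below 0.05 and 17 (9.88%) differed by more than 1.5-fold. Of the 5904 farther away, 4 were called, 253 (4.29%) had such a p and 69 (1.17%) such a difference. The signs were mixed, with 83 of the 172 positive. The genes near ends had a median level of 9.63 CPM against 57.2 CPM for the others, and the part of this lower level in the difference was not tested. Among them YER188W, a gene of unknown function 8.12 kb from the end of chromosome V, narrowly missed the threshold. It stood at 3.71, 3.72 and 4.70 CPM in cpt1Δ ept1Δ, against 7.30, 8.33 and 7.51 CPM in ect1Δ pct1Δ and 7.07, 8.40 and 8.30 CPM in WT. Here cpt1Δ ept1Δ was the low strain, with a log2 fold change of -0.94 ± 0.19 (edgeR, Benjamini-Hochberg adjusted p = 0.0538).

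IMD2 (chromosome VIII, 554396 to 555967, plus strand) encodes an inosine monophosphate dehydrogenase, the enzyme at the branch point to guanine nucleotides, and in yeast its transcription responds to the guanine nucleotide supply. It stood at 111, 104 and 107 CPM in cpt1Δ ept1Δ, against 155, 157 and 152 CPM in ect1Δ pct1Δ and 90.9, 90.7 and 87.0 CPM in WT. All 3 groups were thus separate, with cpt1Δ ept1Δ between the others. In cpt1Δ ept1Δ the level was 69.2% of that in ect1Δ pct1Δ (log2 fold change -0.53 ± 0.06, edgeR, Benjamini-Hochberg adjusted p = 2.25e-05). The other members of the enzyme family had nearly equal levels, IMD3 with 772 ± 14.4 CPM in cpt1Δ ept1Δ and 756 ± 22.8 CPM in ect1Δ pct1Δ and IMD4 with 418 ± 7.5 CPM in cpt1Δ ept1Δ and 419 ± 18.9 CPM in ect1Δ pct1Δ (SD, n = 3 each). The non-functional copy IMD1 is 96.7% identical to IMD2 over 1212 bases, YAR075W 95.4% over 474, IMD3 89.0% over 1570 and IMD4 82.8% over 1098, and how reads that match several genes were counted was not given in the sources used here, so the level of IMD2 is uncertain. IMD1 itself stood at 0.73 ± 0.46 CPM in cpt1Δ ept1Δ and 1.72 ± 0.30 CPM in ect1Δ pct1Δ. Of the 8 tested genes of guanine nucleotide synthesis and salvage, IMD2 was called, against 0.0823% of all genes tested called lower. The remaining 7, GUA1 and GUK1 among them, lay between -0.05 and 0.07 on the log2 scale.

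IRC7 and YNL134C complete the set. IRC7 (chromosome VI, 264204 to 265226, plus strand) encodes a lyase that cleaves cysteine and its conjugates, and it was the gene in which cpt1Δ ept1Δ was the strain farther from WT. It stood at 75.6, 81.7 and 88.1 CPM in cpt1Δ ept1Δ, against 118, 119 and 119 CPM in ect1Δ pct1Δ and 93.9, 115 and 111 CPM in WT, with no overlap among the groups. The log2 fold change was -0.53 ± 0.08 (edgeR, Benjamini-Hochberg adjusted p = 0.00131). YFR056C, on the other strand, shares 122 bases with IRC7, and its log2 fold change of -0.45 ± 0.19 (not called) can come from the same reads. YNL134C (chromosome XIV, 372451 to 373581, minus strand), related to alcohol dehydrogenases and known to reduce aldehydes, stood at 180.2, 183 and 188 CPM in cpt1Δ ept1Δ, against 221, 233 and 217 CPM in ect1Δ pct1Δ and 177, 175 and 174 CPM in WT. This was the smallest called difference, at -0.29 ± 0.05 on the log2 scale (edgeR, Benjamini-Hochberg adjusted p = 0.0237), and the call ended when any 1 of the 6 libraries of the strains was left out (adjusted p up to 0.222). It lies 5.98 kb from CPT1, the gene that cpt1Δ ept1Δ lacks, and FYV6 of the genes between had a log2 fold change of -0.10 ± 0.11.

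**Figure D3:**
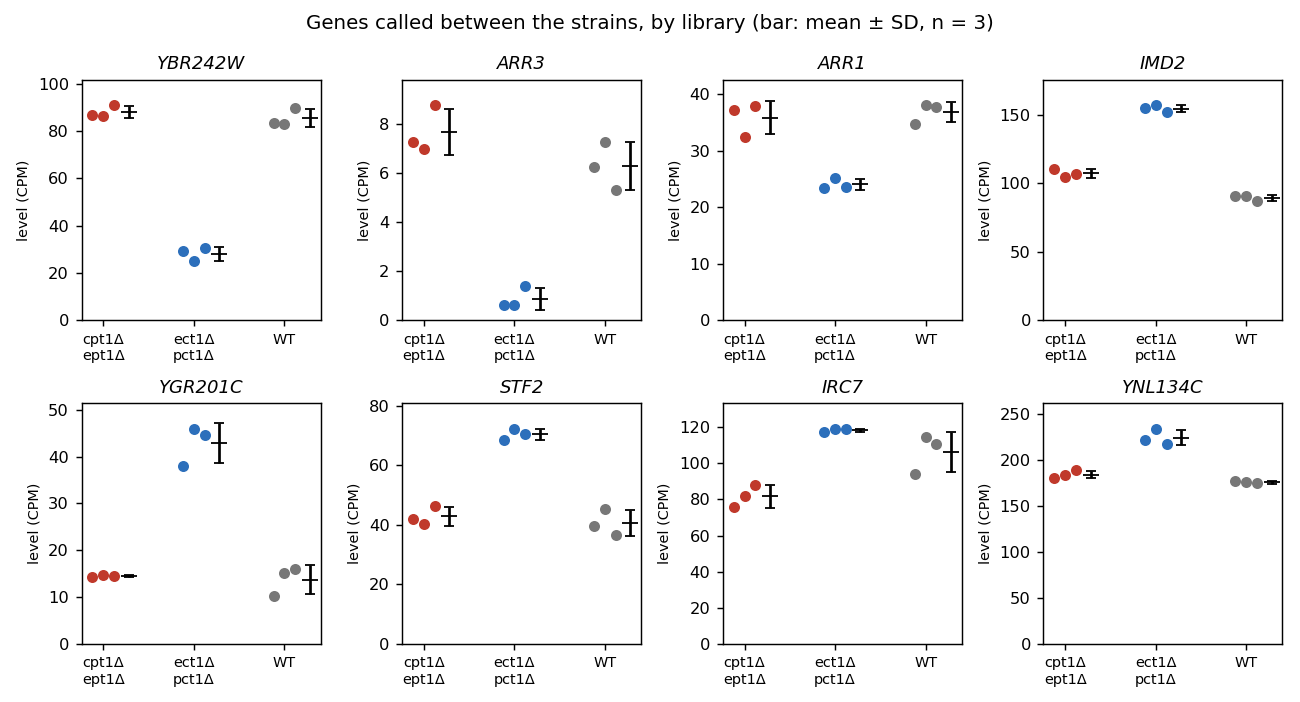
Level in CPM (vertical axes, each from 0) of the 8 called genes in each library of cpt1Δ ept1Δ (red), ect1Δ pct1Δ (blue) and WT (grey), with the mean and SD of each group (n = 3) as a black bar. In 7 genes cpt1Δ ept1Δ is the strain nearer to WT; in IRC7 it is ect1Δ pct1Δ.

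At the deleted loci 1 gene beside ECT1 and 1 beside PCT1 were called, and none beside CPT1 or EPT1. Of the 16 tested genes within 2 kb of a deleted gene 2 were called, both lower in cpt1Δ ept1Δ, against 0.132% of all genes tested called in either direction and 0.0823% called lower. ECT1 and PCT1 are intact in cpt1Δ ept1Δ. YGR201C (chromosome VII, 902520 to 903197, minus strand), a gene of unknown function, starts 276 bases past the end of PCT1 on the same strand. It stood at 14.3, 14.6 and 14.4 CPM in cpt1Δ ept1Δ, against 37.9, 45.9 and 44.7 CPM in ect1Δ pct1Δ and 10.2, 15.1 and 15.9 CPM in WT. The libraries of cpt1Δ ept1Δ lay within the range of WT, and the level in ect1Δ pct1Δ was 2.97 times as high (log2 fold change -1.57 ± 0.14, edgeR, Benjamini-Hochberg adjusted p = 1.27e-06). The stretch between the genes (chrVII:903198-903473, minus strand, from the end of PCT1 to the start codon of YGR201C) is shown because it joins the deleted gene to the gene that differed; capitals mark TATAA and TTATA as above, with 4 matches.
between PCT1 and YGR201C: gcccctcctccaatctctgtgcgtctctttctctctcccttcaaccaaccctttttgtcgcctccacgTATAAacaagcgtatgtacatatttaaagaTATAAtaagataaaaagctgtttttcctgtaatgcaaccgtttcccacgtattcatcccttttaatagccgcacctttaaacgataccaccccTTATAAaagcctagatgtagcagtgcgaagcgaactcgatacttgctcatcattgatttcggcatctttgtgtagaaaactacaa
What stands in place of PCT1 in the deletion strain was not given in the sources used here.

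STF2 (508110 to 508364, minus strand), known for a role in survival of drying and for binding the ATP synthase, lies 169 bases from ECT1 and points toward it. It stood at 42.0, 40.2 and 46.2 CPM in cpt1Δ ept1Δ, against 68.5, 72.2 and 70.6 CPM in ect1Δ pct1Δ and 39.7, 45.3 and 36.5 CPM in WT. Again cpt1Δ ept1Δ and WT overlapped and ect1Δ pct1Δ was higher in every library (log2 fold change -0.72 ± 0.08, edgeR, Benjamini-Hochberg adjusted p = 6.05e-05). On the other side of ECT1, 143 bases away, the splicing factor gene PRP18 stood at 12.6, 11.3 and 11.8 CPM in cpt1Δ ept1Δ, against 7.46, 7.39 and 8.38 CPM in ect1Δ pct1Δ and 11.1, 12.8 and 7.81 CPM in WT. Its libraries did not overlap between the strains, but it was not called (log2 fold change 0.62 ± 0.17, edgeR, Benjamini-Hochberg adjusted p = 0.343). Beside EPT1, 479 bases past its end, NDT80, the master activator of meiotic genes, stood at 14.7, 13.7 and 14.9 CPM in cpt1Δ ept1Δ, against 21.6, 18.8 and 23.2 CPM in ect1Δ pct1Δ and 21.7, 22.2 and 18.1 CPM in WT. Here the low strain was the one without EPT1 (log2 fold change -0.54 ± 0.13, edgeR, Benjamini-Hochberg adjusted p = 0.184). The 5 tested neighbours of CPT1 lay between -0.38 and 0.10. YCH1 and ADE3, on the side of PCT1 where it starts, away from YGR201C, lay at 0.28 and 0.17, and none of these genes was called. The bases AGGGG, the core of the stress response element, or its reverse complement stood once each in the 250 bases before YGR201C, STF2 and YNL134C and not in those before the remaining 5 called genes, against 18.8% of all such windows.

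**Figure D4:**
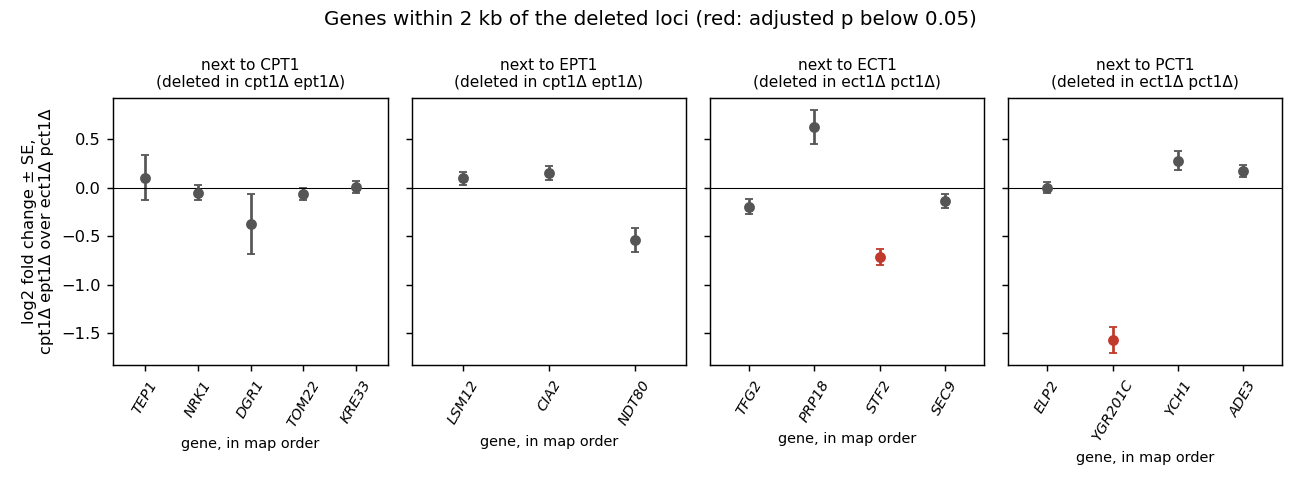
Log2 fold change with its SE, cpt1Δ ept1Δ over ect1Δ pct1Δ (vertical axis), of the tested genes within 2 kb of each deleted gene, in map order (horizontal axis), with 1 panel for each deleted gene; red points are called. YGR201C beside PCT1 and STF2 beside ECT1 are the called ones, at -1.57 and -0.72.

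No gene of phospholipid synthesis was called. Of the 3 remaining Kennedy pathway genes, CKI1, the choline kinase gene, averaged 105 ± 4.11 CPM in cpt1Δ ept1Δ and 98.3 ± 0.58 CPM in ect1Δ pct1Δ. EKI1, the ethanolamine kinase gene, averaged 58.9 ± 4.27 CPM in cpt1Δ ept1Δ and 65.2 ± 2.35 CPM in ect1Δ pct1Δ. HNM1, the choline transporter gene, averaged 716 ± 24.2 CPM in cpt1Δ ept1Δ and 701 ± 11.3 CPM in ect1Δ pct1Δ. In this order their log2 fold changes were 0.10, -0.15 and 0.03, with 95% intervals of -0.04 to 0.23, -0.31 to 0.02 and -0.07 to 0.14, so larger differences lie outside the intervals. The libraries of the strains did not overlap for CKI1, higher in cpt1Δ ept1Δ, or for EKI1, lower, and overlapped for HNM1. Such a separation held for 4.72% of all genes upward and 5.56% downward. On the CDP-diacylglycerol route, the phosphatidylserine synthase gene CHO1 stood at -0.02 (-0.16 to 0.12), the decarboxylase genes PSD1 and PSD2 at 0.01 (-0.13 to 0.16) and 0.00 (-0.15 to 0.15), and the methyltransferase genes CHO2 and OPI3 at -0.02 (-0.14 to 0.10) and -0.11 (-0.26 to 0.03). The list of this route has 13 tested genes and also holds PIS1, the phosphatidylinositol synthase gene. PGS1, TAM41, GEP4, CRD1, TAZ1 and CLD1 in it belong to cardiolipin synthesis and remodelling. By edgeR 0 of the 13 were called and 0 had an unadjusted p below 0.05, and DESeq2 and limma called 0 as well. The median was -0.018, against -0.003 for all genes, and it was 0.02 without cpt1Δ ept1Δ replicate 2 and -0.04 without ect1Δ pct1Δ replicate 3.

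Regulation by inositol, which in yeast governs many of these genes through the activators Ino2 and Ino4 and the repressor Opi1, showed no called difference either. INO1, the inositol-3-phosphate synthase gene that responds most to this control, stood at 146, 68.1 and 85.7 CPM in cpt1Δ ept1Δ, against 99.0, 78.1 and 97.1 CPM in ect1Δ pct1Δ and 94.0, 116 and 128 CPM in WT. The libraries of the strains overlapped widely, and the log2 fold change of 0.12 had a 95% interval of -0.28 to 0.53. Of the 10 tested genes of the group 0 were called by edgeR, DESeq2 or limma. An unadjusted p below 0.05 was found for 3 of the 10, against 4.66% of all genes tested. They were INO4 (-0.26 ± 0.09), the inositol monophosphatase gene INM1 (-0.20 ± 0.08) and GIT1 (0.47 ± 0.20), a transporter of glycerophosphoinositol. Of the 17 genes that make and use phosphatidate and diacylglycerol, the substrate of Cpt1 and Ept1, 10 were positive and 7 negative with a median of 0.05 (0.02 without cpt1Δ ept1Δ replicate 1 or ect1Δ pct1Δ replicate 1 or 3), 0 were called by edgeR, DESeq2 or limma, and ARE2, a sterol ester synthase gene, was the 1 with an unadjusted p below 0.05 (-0.16).

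Most other groups of genes had medians close to that of all genes, of which 48.4% were positive and 1.69% higher at an unadjusted p below 0.05. Ergosterol synthesis had 24 of 27 genes positive with a median of 0.04, from ERG28 (0.14) down, and 0 had an unadjusted p below 0.05 or were called by edgeR, DESeq2 or limma. HES1, a sterol-binding protein gene of this list, stood at -0.72 ± 0.41, with means of only 0.95 CPM in cpt1Δ ept1Δ and 1.43 CPM in ect1Δ pct1Δ. The list of protein folding in the endoplasmic reticulum and of the unfolded protein response also holds INP1, a peroxisome inheritance gene (-0.18). The list had 23 of 33 genes positive with a median of 0.02 (0.01 without ect1Δ pct1Δ replicate 3 and 0.04 without ect1Δ pct1Δ replicate 2). Of these HAC1, the regulator of that response (-0.16), and DER1, of the degradation pathway (-0.30), had an unadjusted p below 0.05. Genes for GPI anchor synthesis had 17 of 22 positive (median 0.05), with GAB1 (0.19) and PBN1 (0.14) at such a p. The leucine, isoleucine and valine genes had 10 of 13 positive (median 0.05, and 0.03 without cpt1Δ ept1Δ replicate 3), LEU1 (0.16), LEU4 (0.14) and ILV5 (0.12) with such a p. Drug exporter genes had 10 of 17 positive (median 0.05, and 0.02 without ect1Δ pct1Δ replicate 2 or 0.09 without cpt1Δ ept1Δ replicate 1 or 2 or ect1Δ pct1Δ replicate 1), with PDR5, AQR1 and SGE1 at an unadjusted p below 0.05, all positive. PDR5, the main one, averaged 222 ± 9.25 CPM in cpt1Δ ept1Δ and 188 ± 9.23 CPM in ect1Δ pct1Δ (SD, n = 3 each; log2 fold change 0.24 ± 0.07). The 138 ribosomal protein genes had a median of 0.003, the 48 of ribosome biogenesis 0.011 and the 33 of the proteasome 0.009, all with 0 genes at an unadjusted p below 0.05, and each of the 3 changed sign when single strain libraries were left out. None of the genes in these groups was called by edgeR, DESeq2 or limma.

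The lowest medians, at -0.06 or below, belonged to genes of complexes III and IV, ATP synthase, histones, stress, stationary phase, nitrogen use, sporulation, autophagy and iron. Of the genes of complexes III and IV of the respiratory chain 16 of 19 were negative (median -0.07), and of the ATP synthase genes 15 of 16 (median -0.07), against 51.6% of all genes, with 1 and 0 genes at an unadjusted p below 0.05. The median was -0.04 for complexes III and IV without cpt1Δ ept1Δ replicate 3 and -0.04 for ATP synthase without ect1Δ pct1Δ replicate 2. Other groups of respiration had medians nearer 0: the dehydrogenases of the chain had 5 positive and 5 negative (median 0.003), the 66 mitochondrial ribosomal protein genes a median of 0.01, and the regulators of respiration and the genes of the citric acid cycle and gluconeogenesis medians of -0.01 each. Of the 11 histone genes 11 were negative (median -0.10, from -0.13 to -0.03), HTA1 and HHF1 with such a p. The stress list, which holds targets of the activators Msn2 and Msn4 and both activator genes, MSN2 (-0.04) and MSN4 (-0.03), had 22 of 25 negative and a median of -0.12. Of these SPI1, a cell wall protein gene, averaged 14.4 ± 1.18 CPM in cpt1Δ ept1Δ and 20.8 ± 1.63 CPM in ect1Δ pct1Δ (SD, n = 3 each; log2 fold change -0.52 ± 0.14), and YGP1, a secreted glycoprotein gene, 43.7 ± 1.88 CPM in cpt1Δ ept1Δ and 55.4 ± 9.48 CPM in ect1Δ pct1Δ (log2 fold change -0.33 ± 0.11). In total 5 of the 25 had an unadjusted p below 0.05 and a lower level, against 2.96% of all genes. HSP26, a small heat shock protein gene, had the opposite sign, with 38.5 ± 2.31 CPM in cpt1Δ ept1Δ and 33.8 ± 4.92 CPM in ect1Δ pct1Δ (log2 fold change 0.17 ± 0.11). HSP12, another stress gene, had 10.5 ± 1.16 CPM in cpt1Δ ept1Δ and 12.7 ± 5.21 CPM in ect1Δ pct1Δ, where 1 library stood at 18.7 CPM. None of these respiration, histone and stress genes was called by edgeR, DESeq2 or limma.

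Markers of cells that leave log phase were included to see whether the cultures differed in growth stage. Of 13 tested markers 6 were positive and 7 negative, the median was -0.19, and their mean log2 level relative to the average over all libraries was -0.06 to 0.09 in cpt1Δ ept1Δ, 0.12 to 0.17 in ect1Δ pct1Δ and -0.18 to -0.12 in WT. STF2, already described as the neighbour of ECT1, was the 1 called, against 0.0823% of all genes tested called lower. HSP30, a plasma membrane stress protein gene, stood at 89.0, 88.6 and 90.6 CPM in cpt1Δ ept1Δ, against 112, 114 and 121 CPM in ect1Δ pct1Δ and 72.5, 85.1 and 65.4 CPM in WT. Its libraries did not overlap and it missed the threshold narrowly (log2 fold change -0.37 ± 0.08, edgeR, Benjamini-Hochberg adjusted p = 0.0573), while DESeq2 called it. YRO2 and FMP48 had log2 fold changes of -0.32 ± 0.13 and -0.30 ± 0.10, and the 6 positive markers were SNO1 (0.23 ± 0.18), SPG5 (0.10 ± 0.07) and SNZ1, SNZ3, GRE2 and UGA1, which lay between 0.00 and 0.07. The median depended on single libraries and was -0.02 without cpt1Δ ept1Δ replicate 1, -0.09 without cpt1Δ ept1Δ replicate 2 or ect1Δ pct1Δ replicate 2, and -0.29 without cpt1Δ ept1Δ replicate 3. The part of growth stage in the stress and respiration values was not tested.

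Genes of nitrogen use, which cover ammonium assimilation, ammonium and amino acid uptake, the use of allantoin, urea and proline, and regulators, had 20 of 24 negative, against 51.6% of all genes. Their median was -0.09, which was -0.07 without cpt1Δ ept1Δ replicate 2 and -0.15 without ect1Δ pct1Δ replicate 3. At an unadjusted p below 0.05, 6 of the 24 were lower, against 2.96% of all genes. The 4 positive members, GLN1, GDH1, GDH3 and GLT1, at 0.04 to 0.08, encode enzymes of ammonium assimilation. None was called by the main edgeR fit, DESeq2 or limma, while DUR3 and PUT1 were called with a replicate block and the 6 strain libraries alone. DUR3, a urea transporter gene, stood at 13.5, 16.2 and 15.7 CPM in cpt1Δ ept1Δ, against 32.8, 19.1 and 20.1 CPM in ect1Δ pct1Δ and 17.4, 18.2 and 16.9 CPM in WT, so that replicate 1 of ect1Δ pct1Δ was the high library. PUT1, the proline oxidase gene, showed the same, with 87.4, 92.9 and 88.2 CPM in cpt1Δ ept1Δ, against 138, 98.9 and 107 CPM in ect1Δ pct1Δ and 103, 118 and 102 CPM in WT. The log2 fold changes were -0.64 ± 0.17 and -0.35 ± 0.10, and DAL80, a repressor gene of the group, had -0.58 ± 0.21.

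Sporulation genes had 14 of 16 negative and a median of -0.10, which was -0.07 without cpt1Δ ept1Δ replicate 1, -0.16 without cpt1Δ ept1Δ replicate 2 and -0.18 without ect1Δ pct1Δ replicate 2. NDT80, the transcription factor gene of mid-sporulation, already described as the neighbour of EPT1, was the 1 with an unadjusted p below 0.05 (-0.54). Autophagy genes had 22 of 28 negative and a median of -0.06. It was -0.10 without cpt1Δ ept1Δ replicate 1, -0.05 without cpt1Δ ept1Δ replicate 2 and -0.12 without cpt1Δ ept1Δ replicate 3. Of these ATG8, whose protein builds the autophagosome membrane (-0.36), and ATG20 (-0.18) were lower and ATG22 (0.19) higher at such a p. Iron genes had 17 of 26 negative and a median of -0.07, which was 0.01 without cpt1Δ ept1Δ replicate 1, -0.03 without ect1Δ pct1Δ replicate 1 and -0.13 without cpt1Δ ept1Δ replicate 3. Of these HMX1, the heme oxygenase gene (-0.22), and ARN1, a siderophore transporter gene (-0.29), were lower at such a p. None of the genes in these 3 groups was called in the main edgeR fit. NDT80 and the iron gene FRE1 were called with a replicate block and the 6 strain libraries alone. Of all genes 51.6% were negative, 2.96% were lower at an unadjusted p below 0.05 and 1.69% were higher at such a p.

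**Figure D5:**
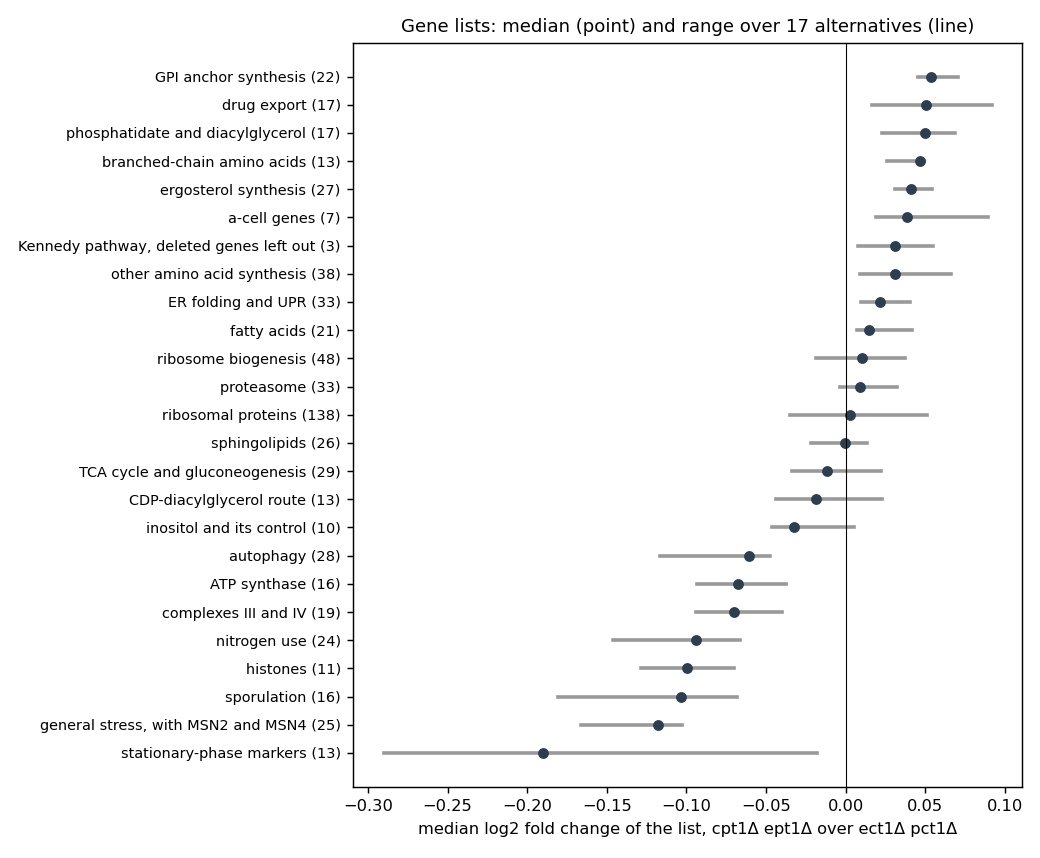
Median log2 fold change, cpt1Δ ept1Δ over ect1Δ pct1Δ (horizontal axis), of 25 gene lists with the number of tested genes in brackets; points are the reported medians and grey lines the range over 17 alternative analyses. All medians lie between -0.19 and 0.05, and the stationary-phase markers have the widest range.

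Genes that stood apart from WT in both strains in earlier results can be read in the same contrast, and they were chosen here for that. YDL057W, known by its identifier, averaged 19.0 ± 0.54 CPM in cpt1Δ ept1Δ and 21.2 ± 1.47 CPM in ect1Δ pct1Δ, with 5.86 ± 1.5 CPM in WT (SD, n = 3 each). ZRT1, the high-affinity zinc transporter gene, averaged 43.2 ± 11.2 CPM in cpt1Δ ept1Δ and 44.7 ± 2.56 CPM in ect1Δ pct1Δ, with 83.2 ± 4.24 CPM in WT. KAR2, the main Hsp70 chaperone gene of the endoplasmic reticulum, averaged 510.0 ± 18.3 CPM in cpt1Δ ept1Δ and 541 ± 20.3 CPM in ect1Δ pct1Δ, with 649.7 ± 17.2 CPM in WT. Between the strains the log2 fold changes were -0.16 (95% interval -0.44 to 0.11) for YDL057W, -0.04 (-0.32 to 0.23) for ZRT1 and -0.09 (-0.20 to 0.03) for KAR2. These intervals, unadjusted for the number of genes, bound how far the strains could differ and do not show that the levels are equal. For YDL057W and KAR2 every cpt1Δ ept1Δ library lay below every ect1Δ pct1Δ library, as in 5.56% of all genes, and for ZRT1 the strains overlapped. EEB1, which makes ethyl esters of fatty acids, averaged 705 ± 48.5 CPM in cpt1Δ ept1Δ and 799.7 ± 53.0 CPM in ect1Δ pct1Δ, with 544 ± 29.3 CPM in WT. Its interval of -0.32 to -0.04 lay below 0, but it was not called (log2 fold change -0.18 ± 0.06, edgeR, Benjamini-Hochberg adjusted p = 0.711).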

How the data were processed

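RNA levels were compared between 3 libraries of each double deletion strain, with 3 WT libraries in the same fit. The authors deposited a table with whole-number counts and FPKM values for each gene. Per the submitters' processing notes HISAT2 2.2.1, HTSeq 0.6.1 and build R64 were used, named with no role or order; whether counting used strand was not given in the sources used here, so overlapping genes cannot be told apart. FPKM is the name per the file headers, and 99.9% of 64098 values matched the count divided by gene length and library total, to within 0.0051 FPKM or a relative 0.002. There were 7122 genes, 4 further lines without values, and 6 columns from 3 libraries that match no sample and were not analysed here.

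The test was edgeR 4.0.16 (R 4.3.3) on these counts (glmQLFit and glmQLFTest, TMM scaling, filterByExpr by group), with 1 mean per group and no covariates. The filter removed 1039 genes, at most 0.021% of the counts of a library, and left 6083. P-values are two-sided and adjusted by Benjamini and Hochberg over all 6083 genes. The biological coefficient of variation was 6.24%. CPM carry TMM scaling. A single value compared between 3 and 3 libraries by exact permutation cannot reach a two-sided p below 0.1. No library repeated another, with Pearson's r of 0.991 to 0.994 across genes within groups and a chi-square per gene of 2.34 to 9.21. The scripts were tested on simulated data. The 54 gene lists have 1230 entries, of which 1227 matched a gene, and are described by counts and medians without a set test.

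The comparison, the lists and the named genes were chosen with earlier results of these data known. The naming rule takes the deleted genes, the called genes, the genes within 2 kb of the deleted loci, all tested genes of the Kennedy, CDP-diacylglycerol and inositol lists, PAH1, DGK1, and from each other list its called members or, without any, the member with the smallest p. It gave 100 genes. Others that the text names were chosen after their values were seen. Sequences, coordinates and windows before start codons come from RefSeq's R64 genome, in whose annotation 6045 identifiers were found, 6033 of them with the same start and end. Similar genes were found with blastn 2.17.0 (e-value limit 1e-10, at least 100 aligned bases). DESeq2 1.42.0 and limma 3.58.1 were alternatives.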

Additional observations from a re-analysis of the deposited data

How the results depend on the processing

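All 17 alternatives kept the direction of the 8 called genes, and YBR242W, ARR3, YGR201C, STF2, IRC7 and IMD2 were called in each of them. Against 8 calls, 3 higher and 5 lower in cpt1Δ ept1Δ, leaving out 1 library at a time gave 6 to 9 calls, 2 to 3 higher and 4 to 6 lower. ARR1 was lost without cpt1Δ ept1Δ replicate 1 or 3 or ect1Δ pct1Δ replicate 1 or 3. YNL134C was lost without any 1 of the 6 strain libraries. DESeq2 called 8 genes lower, adding HPF1, HSP30 and YER188W, and limma on log2(FPKM + 1) called 5 higher, adding RDN5-1 and YLR466C-B, and SDH8 and YER188W lower. Other scaling, other filters and a fit of the 6 strain libraries gave 8 to 10 calls. The cause of these differences was not tested. The 2 mitochondrial ribosomal RNAs, which were not called, had log2 fold changes of 2.06 (15S_rRNA) and 2.47 (21S_rRNA), and -0.87 and -1.68 without cpt1Δ ept1Δ replicate 3, the library rich in them.

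Replicate numbers did not pair the libraries: deviations of same-numbered libraries of the strains correlated with r of 0.02, -0.269 and -0.023 across genes. A replicate block gave 7 calls, without YNL134C. With the block and the 6 strain libraries alone there were 21, 5 higher and 16 lower. NDT80, DUR3, PUT1, FRE1 and YRO2 were among those added, and YNL134C was lost.

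Depth limits genes of low level. ARR3 and ARR2 rest on 0 to 16 counts per ect1Δ pct1Δ library. The typical SE was 0.09 on the log2 scale, and differences several times that size could go uncalled. HSP30 (-0.37 ± 0.08) and NDT80 (-0.54 ± 0.13) were not called in the main fit, while the smallest called difference was that of YNL134C (-0.29 ± 0.05).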

Other observations

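Outside the gene lists described, 2 further genes, chosen after their values were seen, differed without being called. YFL067W, 0.84 kb from the end of chromosome VI, had 7.89, 7.52 and 5.76 CPM in cpt1Δ ept1Δ, against 5.28, 3.27 and 2.27 CPM in ect1Δ pct1Δ and 9.97, 7.61 and 5.81 CPM in WT. The libraries of the strains did not overlap, with a log2 fold change of 0.96 ± 0.27 (edgeR, Benjamini-Hochberg adjusted p = 0.343). YFL067W is 82.6% identical over 483 bases to YPR204W, the helicase gene of the Y' elements, and whether its reads come from this end alone was not tested. HPF1, a cell wall mannoprotein gene 28.7 kb from the end of chromosome XV, had 178, 227 and 245 CPM in cpt1Δ ept1Δ, against 309, 255 and 294 CPM in ect1Δ pct1Δ and 274, 307 and 251 CPM in WT, with a log2 fold change of -0.39 ± 0.10 (edgeR, Benjamini-Hochberg adjusted p = 0.26).

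Values of 3 more genes that were not called, also chosen after they were seen, follow. SDH8, an assembly factor gene of succinate dehydrogenase, averaged 34.8 ± 2.00 CPM in cpt1Δ ept1Δ, 43.7 ± 1.66 CPM in ect1Δ pct1Δ and 36.1 ± 1.67 CPM in WT (SD, n = 3 each). MPC3, a subunit gene of the mitochondrial pyruvate carrier, had 5.98, 5.31 and 3.28 CPM in cpt1Δ ept1Δ, against 1.71, 3.61 and 3.32 CPM in ect1Δ pct1Δ, so the strains overlapped. RDN5-1, a 5S ribosomal RNA gene, averaged 7.71 ± 0.92 CPM in cpt1Δ ept1Δ, 4.66 ± 0.40 CPM in ect1Δ pct1Δ and 11.6 ± 1.67 CPM in WT, in libraries selected for poly(A).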
